A study of Mus musculus with 6 samples.

Results

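The genes described here are 10 regulators of the actin cytoskeleton and of focal adhesions, chosen by symbol: Tln1, Tpm2, Flnc, Svil, Myo10, Tes, Capza2, Wasl, Tmod1 and Rai14. They are 10 of the 53647 Ensembl genes in the table, and all 10 passed the filter on low values. The cells were D2.OR, murine breast cancer cells, and carried a lentiviral hairpin against SLX4IP (shSLX4IP, n = 3) or a scrambled, non-targeting hairpin (shScram, n = 3), and both groups were selected with puromycin and grown on a basement membrane extract for 7 days before their RNA was sequenced. The comparison asks what depletion of SLX4IP, a partner of the nuclease scaffold SLX4, does to transcripts of these cells in 3D culture. Replicates are called biological in the labels, without a statement of separate cultures, so the p-values below measure the spread between these libraries. The labels name 1 hairpin against SLX4IP and do not say whether the cells are clonal.

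Actin filaments grow from nucleating complexes, are capped at both ends, and are bundled into stress fibres by crosslinkers, tropomyosins and myosins. Focal adhesions tie those fibres to integrins, and through them to the matrix around the cell. In mammary tumour cells grown in 3D matrix, this machinery is known for its role in the shape, spreading and outgrowth of the cells.

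Recovered depth ran from 5433573 to 6693111 reads in the shSLX4IP libraries and from 6110599 to 6554748 reads in the shScram libraries. One library stood apart: across the features tested, the correlation of log2 values was 0.763 and 0.804 for shScram A with shScram B and C, 0.876 between shScram B and C, and 0.870 to 0.877 within shSLX4IP. In shScram A, 8464 features were above 0, against 10548 to 11611 in the other libraries. Each of its reads stood for 1.46 in the deposited values, against 0.796 to 0.976 in the others. Gene identifiers and reads agree in this table only along 4 chromosome segments, and genes wholly inside them, with the mitochondrial genes, are called placed. All 10 members are placed. Slx4ip lies outside the segments and is listed at 0 in all 6 libraries, so the knockdown could not be checked. Of the mammary epithelial markers Epcam, Cdh1, Krt8, Krt18 and Grhl2, only Grhl2 is placed, at 2.93 to 20.7 in shSLX4IP and 16.8 to 68.8 in shScram, so the labelled cell type could be checked on that 1 marker only. Levels below are the deposited normalised read counts, that is, reads divided by a size factor per library, and a fold change is shSLX4IP over shScram on the log2(value + 1) scale.

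The members did not move as a block. Transcripts of the tropomyosin Tpm2, the crosslinker Flnc, the stress fibre protein Rai14 and the nucleation factor Wasl rose in shSLX4IP. Those of the filopodial myosin Myo10, the adhesion protein Tes and the pointed-end cap Tmod1 fell. Capza2, Tln1 and Svil did not pass. In all, 7 of 10 members passed the limma test at an adjusted p under 0.05, which 23.0% of the 8127 features tested and 41.1% of the 431 placed nuclear features did. The members were chosen with earlier results of these data known. These shares therefore stand beside the counts as a description, and no enrichment was drawn from them. With the mitochondrial features added, the placed share was 40.3%, with 17.3% higher and 22.9% lower. There were 4 higher members, where the background was 11.7% of all features and 18.3% of placed nuclear ones, and 3 lower members, with backgrounds of 11.3% and 22.7%. The shSLX4IP and shScram libraries did not overlap in any of the 10 members, and they did not overlap in 53.5% of all features and 67.5% of placed nuclear features (67.1% with the mitochondrial ones). The median log2 fold change was -0.06 over the members, 0.25 over all features tested and -0.15 over placed nuclear features. In this bulk RNA, fewer cells with a transcript and less of it per cell cannot be told apart.

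**Figure D1:**
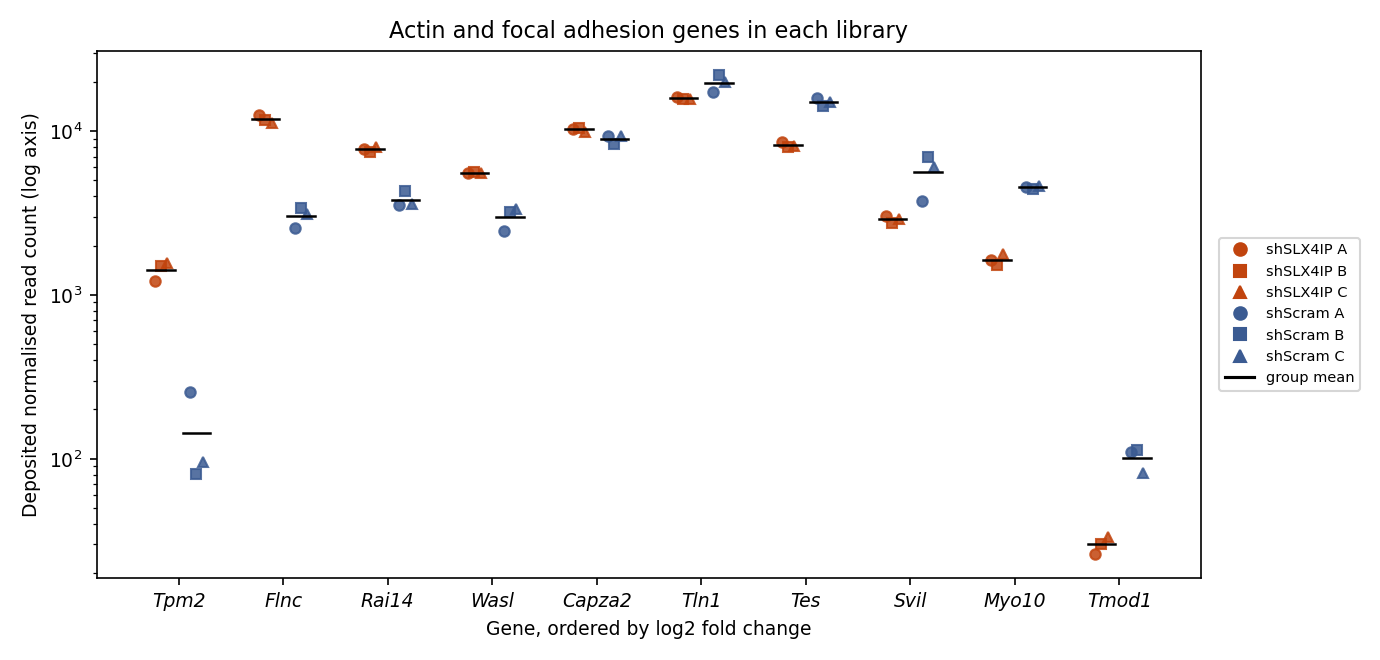
Deposited normalised read count (log axis) of each of the 10 genes in each library, with shSLX4IP left of shScram and a bar at the group mean. Tpm2, Flnc, Rai14 and Wasl lie higher in the 3 shSLX4IP libraries, Tes, Myo10 and Tmod1 lie lower, and the shScram A circle stands apart from shScram B and C for Tpm2 and Svil.

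Tpm2 (ENSMUSG00000028464.17, chromosome 4, 43514711 to 43523765, minus strand, GRCm38) encodes beta-tropomyosin, a coiled coil that winds along the filament and governs which other proteins can bind there. Its shSLX4IP libraries A to C held 1215, 1499 and 1556, against 256, 80.3 and 95.7 in the shScram libraries A to C. Every shSLX4IP library lay far above every shScram library, and shScram A was the highest of its group. The fold change was 3.48 on the log2 scale (SE 0.47, limma adjusted p = 0.00545), or 11.2-fold, and ranked 24 from the top of the 431 placed nuclear features. Without shScram A it was 4.0. Tpm2 shares sequence with the other tropomyosin genes, and the sources used here do not say how such reads were counted.

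Flnc, the gene of the actin crosslinker filamin C (ENSMUSG00000068699.13, chromosome 6, 29433256 to 29461883, plus strand), gave 12475, 11685 and 11245 in the shSLX4IP libraries A to C, against 2552, 3395 and 3125 in the shScram libraries A to C. Filamin C joins filaments into networks and anchors them at the membrane and, in muscle, at the Z-disc. The groups stood 1.97 apart on the log2 scale (SE 0.15, limma adjusted p = 0.000834), a 3.93-fold rise. This was the smallest adjusted p among the 10 genes, and the spread within each group was small beside the difference.

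Rai14 (ENSMUSG00000022246.15, chromosome 15, 10568969 to 10714624, minus strand) encodes ankycorbin, a protein with ankyrin repeats that lies along stress fibres. Its values of 7806, 7455 and 7984 in shSLX4IP A, B and C compare with 3553, 4341 and 3575 in the shScram libraries A to C. The 3 shSLX4IP libraries were close together and all above shScram. The log2 fold change was 1.02 (SE 0.13, limma adjusted p = 0.00476).

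Markers of muscle were looked at beside Tpm2 and Flnc, which muscle also expresses strongly. Of the skeletal muscle markers Acta1, Myog, Lmod2, Cavin4 and Musk, 3 of 5 are placed, and they summed to 42.0 to 56.5 in shSLX4IP and 1960 to 2920 in shScram. Nearly all of that was Cavin4, while Lmod2 and Musk were listed at 0 in every shSLX4IP library and at no more than 2.73 and 7.47 in shScram. The sum thus follows Cavin4 alone, which was lower in shSLX4IP, where Tpm2 and Flnc were higher. Acta1 and Myog are not placed, so muscle expression as a whole could not be read. None of the smooth muscle markers Myh11, Cnn1, Tagln, Lmod1 and Des is placed. Of the fibroblast, basal and immune markers, only 1 of 5, 1 of 5 and 1 of 3 are placed, and these had lower values in shSLX4IP. Col1a2 of the fibroblast list was at 239 to 302 in shSLX4IP and 20226 to 25022 in shScram. Cav1 of the basal list was at 13418 to 14103 in shSLX4IP and 20895 to 21283 in shScram. Pax5 of the immune list was at 3.90 to 17.2 in shSLX4IP and 26.4 to 34.6 in shScram. No endothelial marker is placed. The part of any of these markers in the members' differences was not tested.

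Promoter windows of RefSeq (GRCm38.p6, 250 bases before to 50 after a start) were found for 9 of the 10 genes, in 12 windows, and not for Svil. Known regulators of actin genes include serum response factor, which binds the CArG box, the TEAD factors and AP-1, and each motif was searched on both strands. The CArG box was in 0 of the 12 windows and in 1.63% of all 32851 windows. TGANTCA, the AP-1 motif, was likewise in 0 of 12 and in 7.81% of all windows. GGAATG, the core TEAD letters, was in 5 of 12 windows, belonging to 4 genes, and in 14.7% of all windows. Those 4 genes went both ways: Flnc and Rai14 rose, Myo10 and Tmod1 fell. The 250 bases before a start are shown for Flnc and Rai14, 2 genes that rose and hold the letters, and for the upstream start of Myo10, which fell and whose match sits at its other, internal start. Capitals mark GGAATG or its reverse complement, at -122 to -117 in Rai14 and at -1 to 4 in Flnc, counting the start base as 0. The Flnc stretch runs on to the end of the match, and the second, overlapping Flnc window holds the same match. The exact stretches are chr6:29432903-29433157 (plus strand), chr15:10714099-10714348 (minus strand) and chr15:25622300-25622549 (plus strand). A match describes letters in a window and is not a binding site.
Flnc: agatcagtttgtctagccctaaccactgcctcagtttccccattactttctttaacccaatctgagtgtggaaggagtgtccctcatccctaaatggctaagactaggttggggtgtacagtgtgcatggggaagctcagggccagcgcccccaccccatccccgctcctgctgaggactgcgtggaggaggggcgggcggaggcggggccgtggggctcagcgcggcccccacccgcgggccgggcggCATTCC
Rai14: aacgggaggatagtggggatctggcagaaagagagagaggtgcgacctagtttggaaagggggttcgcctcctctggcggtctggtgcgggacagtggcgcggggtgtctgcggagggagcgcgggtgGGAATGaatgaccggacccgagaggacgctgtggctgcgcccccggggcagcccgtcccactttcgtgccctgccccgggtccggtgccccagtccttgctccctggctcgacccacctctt
Myo10: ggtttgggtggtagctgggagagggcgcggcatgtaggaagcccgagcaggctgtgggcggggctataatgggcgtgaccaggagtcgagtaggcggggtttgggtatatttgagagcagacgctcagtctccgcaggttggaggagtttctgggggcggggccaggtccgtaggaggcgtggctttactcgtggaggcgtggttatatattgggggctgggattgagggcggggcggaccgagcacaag

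Among genes that start and cap filaments, Wasl rose, Tmod1 fell and Capza2 did not pass. Wasl (ENSMUSG00000029684.15, chromosome 6, 24613805 to 24665009, minus strand) encodes N-WASP, which switches on the Arp2/3 complex to nucleate branched actin. It stood at 5587, 5602 and 5558 in the shSLX4IP libraries A to C, against 2472, 3208 and 3353 in the shScram libraries A to C. The shSLX4IP values were nearly equal and all above the shScram values, of which shScram A was the lowest. The log2 fold change was 0.90 (SE 0.15, limma adjusted p = 0.0124). Its call was lost without any 1 shSLX4IP library (adjusted p = 0.0620 to 0.0648, and 3.19e-08 to 0.0648 over 17 other settings).

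Capza2 (ENSMUSG00000015733.14, chromosome 6, 17636234 to 17666972, plus strand) encodes an alpha subunit of capping protein, which closes the barbed, fast-growing end. The counts were 10250, 10515 and 9941 in the shSLX4IP libraries A to C, against 9346, 8388 and 9302 in the shScram libraries A to C. The groups lay close to each other without overlap. The log2 fold change was 0.19 with a 95% interval from -0.08 to 0.45 (limma adjusted p = 0.244), an interval that spans 0. After quantile normalization it was 0.73 and passed (adjusted p = 0.0403, and up to 0.507 over the other settings).

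Tmod1 (ENSMUSG00000028328.14, chromosome 4, 46038935 to 46116032, plus strand) encodes tropomodulin 1, which caps the pointed, slow-growing end together with tropomyosin. Its mean was the lowest of the 10 per kilobase of exon in both groups. It was at 26.3, 30.3 and 33.4 in the shSLX4IP libraries A to C, against 110, 113 and 82.0 in the shScram libraries A to C. Those values rest on 29 to 42 reads per library in shSLX4IP and 75 to 121 in shScram. Despite the low depth the groups did not overlap, and the log2 fold change was -1.72 (SE 0.30, limma adjusted p = 0.0134). The call was lost without any 1 shSLX4IP library (adjusted p = 0.0587 to 0.0663, the largest of 17 other settings), and quantile normalization gave -2.33. Exons of Tstd2 on the opposite strand cover 32.6% of the exonic length of Tmod1. Tstd2 averaged 1709 in shSLX4IP and 2001 in shScram, and the strand setting of the counting is unknown, so its part in the value of Tmod1 was not tested.

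Of the motor gene Myo10 and the membrane linker gene Svil, Myo10 passed, and it fell. Myo10 (ENSMUSG00000022272.18, chromosome 15, 25622525 to 25813673, plus strand) encodes the unconventional myosin that carries cargo, integrins among it, to the tips of filopodia. Its levels were 1624, 1516 and 1776 in the shSLX4IP libraries A to C, against 4534, 4457 and 4648 in the shScram libraries A to C. The 3 shScram libraries were nearly equal, with shScram A at 99.6% of the mean of shScram B and C. The fall was -1.47 on the log2 scale (SE 0.12, limma adjusted p = 0.00120), or 2.78-fold. Myo10 and Rai14 are 14.9 Mb apart on chromosome 15 and moved in opposite directions.

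Svil (ENSMUSG00000024236.19, chromosome 18, 4920540 to 5119299, plus strand) encodes supervillin, which links actin and myosin II to the membrane and takes part in invasive structures. The table lists 3048, 2769 and 2910 in the shSLX4IP libraries A to C, against 3743, 6980 and 6068 in the shScram libraries A to C. All shScram libraries were higher, and shScram A stood close to the shSLX4IP range, at 57.4% of the mean of shScram B and C. The log2 fold change was -0.90 (95% interval -1.52 to -0.27, limma adjusted p = 0.0540) and did not pass. Without shScram A it was -1.16 and passed (adjusted p = 0.000938, the smallest of 17 other settings, the largest being 0.428). It also passed with a pseudocount of 10 (adjusted p = 0.0462), with the exonic length trend removed (0.00579) and with DESeq2 (0.00109). Quantile normalization, which gave that largest p, put its log2 fold change at -0.42.

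Of the 2 focal adhesion proteins, Tes passed and Tln1 did not. Tes (ENSMUSG00000029552.20, chromosome 6, 17065149 to 17105828, plus strand) encodes testin, a LIM domain protein that binds zyxin and Ena/VASP proteins at adhesions and along stress fibres. Its transcript measured 8576, 7990 and 8063 in the shSLX4IP libraries A to C, against 15840, 14254 and 15033 in the shScram libraries A to C. The groups were well apart, at a log2 fold change of -0.87 (SE 0.10, limma adjusted p = 0.00395). After quantile normalization it was -0.22 and did not pass (adjusted p = 0.501, the largest of 17 other settings). Tes and Capza2 lie 530 kb apart on chromosome 6. The ratio of Tes to Capza2 within a library, from which the size factor drops out, was 0.760 to 0.837 in shSLX4IP and 1.62 to 1.70 in shScram. Tes was lower and Capza2 higher in every shSLX4IP library, so these ranges had to lie apart.

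Tln1 (ENSMUSG00000028465.17, chromosome 4, 43531519 to 43562691, minus strand) encodes talin 1, the adaptor that activates integrins and couples them to actin. It was at 16204, 15796 and 15771 in the shSLX4IP libraries A to C, against 17304, 22110 and 19857 in the shScram libraries A to C. The groups did not overlap, though shScram A lay near shSLX4IP. The log2 fold change was -0.30 with a 95% interval from -0.61 to 0.0057 (limma adjusted p = 0.135). It passed without shScram A (-0.40, adjusted p = 0.00881), with the exonic length trend removed (-0.49, 0.0162) and with DESeq2 (-0.32, 0.0248), and turned to 0.33 after quantile normalization (0.480, the largest of 17 other settings). Exons on the opposite strand overlap 3.67% of Tln1, from Creb3, at means of 1055 in shSLX4IP and 3634 in shScram. The like shares are 2.11% of Tes, from Gm4876, and 1.05% of Rai14, from Gm10389.

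Tpm2 and Tln1 are neighbours on chromosome 4, with 7.75 kb between them. The ratio of Tpm2 to Tln1 was 0.0750 to 0.0987 in shSLX4IP libraries and 0.00363 to 0.0148 in shScram libraries. The same within-library measure for Flnc over Tln1 was 0.713 to 0.770 in shSLX4IP and 0.147 to 0.157 in shScram, and for Flnc over Myo10 it was 6.33 to 7.71 in shSLX4IP and 0.563 to 0.762 in shScram. None of these ratios depends on the size factors. Each sets a gene higher in every shSLX4IP library over a gene lower in every shSLX4IP library. That the ratios did not overlap between the groups was therefore fixed by the choice of pairs. The pairs were picked after the values were seen.

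Per kilobase of exon, the order of the members differed between the groups. In shSLX4IP, Capza2 led with 1738 ± 48.8 per kb and Tln1 followed with 1625 ± 24.8, then Flnc with 1255 ± 66.3 and Tes with 1201 ± 46.8 (SD, n = 3). Flnc and Tes overlapped there, as did Rai14 at 916 ± 31.8 and Wasl at 905 ± 3.63. Tpm2, Svil, Myo10 and Tmod1 came last, at 489, 272, 162 and 7.60 per kb, each apart from the next. In shScram, Tes led with 2201 ± 116 per kb and overlapped Tln1 at 2016 ± 245, and Capza2 came next at 1530 ± 91.8. Svil, Wasl, Rai14 and Myo10, at 523, 488, 452 and 449 per kb, overlapped each with the next. Flnc was at position 8 there, with 322 ± 45.8 per kb, against position 3 in shSLX4IP. Tpm2 and Tmod1 overlapped at 49.5 and 25.8 per kb.

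**Figure D2:**
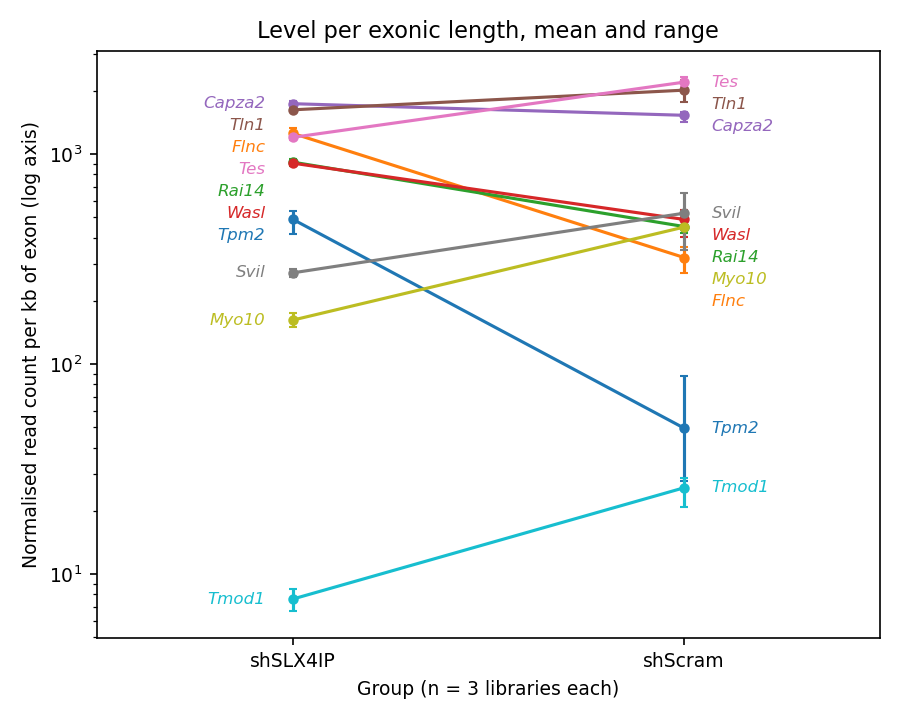
Normalised read count per kilobase of exon (log axis) for each gene, with shSLX4IP on the left and shScram on the right, as the mean and range of 3 libraries. The lines of Flnc and Tpm2 run down to the right and those of Tes, Svil, Myo10 and Tmod1 run up, while Tln1 and Capza2 stay near the top in both groups.

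The members also varied more within shScram than within shSLX4IP, with Myo10 as the exception. This was not particular to them. Over all features tested, log2 values of shScram A correlated at 0.763 and 0.804 with shScram B and C. The correlation was 0.876 between shScram B and C and 0.870 to 0.877 within shSLX4IP. The coefficient of variation in shSLX4IP ran from 0.401% for Wasl to 12.8% for Tpm2, and that in shScram from 2.12% for Myo10 to 67.6% for Tpm2. Within shScram, shScram A was the lowest library of its group for Rai14, Svil, Tln1, Wasl and Flnc and the highest for Tpm2, Tes and Capza2. Placed nuclear genes at or above a mean of 100, 353 in all, were split by exonic length into 3 classes of like size. The median log2 ratio of shScram A to the mean of shScram B and C was 0.84 in the class of 118 shortest and -0.27 in the class of 118 longest. Tpm2 falls in the class of short genes, Capza2 in the middle one and 7 members in the class of long genes. The log2 ratio was 1.54 for Tpm2, and for those 7 it ran from -0.80 for Svil to 0.11 for Tes. The members had a median exonic length of 7648.5 bases, against 4129 for placed nuclear features tested. The fold change also differed with length: its median on the log2 scale was -0.61 in the short class, -0.19 in the middle and 0.05 in the long. With the length trend removed, each of the 7 members that passed kept its call.

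**Figure D3:**
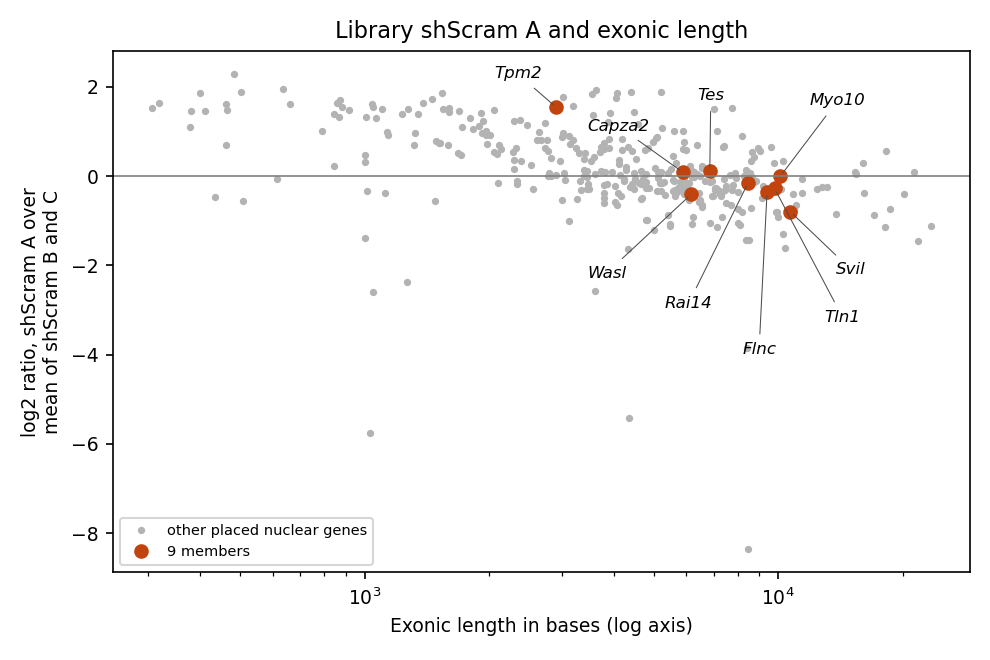
Log2 ratio of shScram A to the mean of shScram B and C against exonic length in bases (log axis) for 353 placed nuclear genes, with 9 members in colour (Tmod1 is below the mean of 100). Short genes lie mostly above 0, Tpm2 at 1.54 among them, and the long members lie between -0.80 and 0.11.

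The other genes of the actin and adhesion machinery were taken from 7 lists with 317 symbols, chosen by function with earlier results of these data known. Of these 316 had a row in the table, and 21 besides the members were placed. Of those, 13 passed the filter on low values, 5 rose, 2 fell and 6 did not pass, with a median log2 fold change of 0.24. Of 4 tested genes that link membrane and junctions to actin, 3 rose and 1 fell. The backgrounds were 11.7% higher and 11.3% lower for all features, and 18.3% and 22.7% for placed nuclear ones. With 4 genes, no result about this class was drawn. Epb41l4b, a band 4.1 family linker, averaged 1591 ± 47.9 in shSLX4IP and 215 ± 28.5 in shScram (SD, n = 3 each; log2 fold change 2.89, limma adjusted p = 0.000475). Ctnnal1, which encodes the catenin-related alpha-catulin, averaged 3660 ± 81.9 in shSLX4IP and 605 ± 67.9 in shScram (2.60, adjusted p = 0.000404). The scaffold gene Mpp7 of epithelial junctions was at 542 ± 47.5 in shSLX4IP and 207 ± 33.2 in shScram (1.39, adjusted p = 0.00770). Ptpn3, a tyrosine phosphatase with a FERM domain, fell to 2404 ± 163 in shSLX4IP, against 4642 ± 756 in shScram (-0.94, adjusted p = 0.0136). Its call was not kept without shSLX4IP A, B or C, without shScram C or after quantile normalization (adjusted p = 0.0549, 0.0703, 0.0650, 0.0562 and 0.217, the largest of 17 other settings). Cttnbp2, Ctnnd2 and Frmpd1 of the same list were below the filter.

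Besides the members, 1 placed gene of the adhesion list was tested, and it rose. Lyn, a Src family kinase that acts downstream of integrins and immune receptors, was at 1464, 1542 and 1535 in the shSLX4IP libraries A to C, against 152, 209 and 274 in the shScram libraries A to C. No value of one group came near the other, at a log2 fold change of 2.87 (SE 0.25, limma adjusted p = 0.00137). The heparan sulphate proteoglycan gene Sdc2 was below the filter.

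Arhgap12 rose and Tesk1 fell. Arhgap12, a GTPase-activating protein for Rac, averaged 2640 ± 365 in shSLX4IP and 1556 ± 215 in shScram (log2 fold change 0.76, limma adjusted p = 0.0325). It failed in 7 of 17 other settings: without shScram C (adjusted p = 0.0751), without any 1 shSLX4IP library (0.0870 to 0.114), with edgeR (0.0522), without the filter and without the trend. The range over the 17 was 0.000126 to 0.114. Tesk1, a kinase that phosphorylates cofilin, averaged 1370 ± 154 in shSLX4IP and 3114 ± 737 in shScram (-1.17, limma adjusted p = 0.0141), with the call lost without shSLX4IP A (0.0652) or shSLX4IP B (0.0692, the largest of 17 other settings). Exons of Cd72 on the opposite strand cover 32.1% of the exonic length of Tesk1. Cd72 averaged 13.6 in shSLX4IP and 40.9 in shScram, and its part in the value of Tesk1 was not tested. Rock1, which encodes a kinase that promotes actomyosin contraction, was at 4736, 4450 and 4375 in the shSLX4IP libraries A to C, against 2255, 5298 and 4695 in the shScram libraries A to C. Its groups overlapped and shScram A lay far below the rest, with a log2 fold change of 0.24 (95% interval -0.60 to 1.08, adjusted p = 0.609). Trio, Rusc2 and Arhgef39 had log2 fold changes of 0.03, -0.09 and -0.23 with adjusted p from 0.585 to 0.958.

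In the list of crosslinkers, bundlers and stress fibre scaffolds, 2 genes besides the members were tested, and neither passed. No nucleation gene besides the members was tested. Coro2a, a coronin, was at 628 ± 101 in shSLX4IP and 957 ± 18.2 in shScram (log2 fold change -0.62, limma adjusted p = 0.0572). It passed without shScram A (adjusted p = 0.0329), with a mean of at least 50 (0.0483) and with DESeq2 (0.00149), the smallest of 17 other settings, the largest being 0.150. Ppp1r9a, which encodes the filament-binding protein neurabin, was low, at 36.2, 15.6 and 13.5 in shSLX4IP and 0, 0 and 8.20 in shScram (limma adjusted p = 0.0770). Without shScram C, which leaves shScram at 0, it passed (0.0227, the smallest of 16 other settings, the largest being 0.248). Lmod2, Actl7a, Actl7b and Fscn3 were below the filter, and no gene besides the members was placed in the lists of capping proteins or of tropomyosins and myosins.

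**Figure D4:**
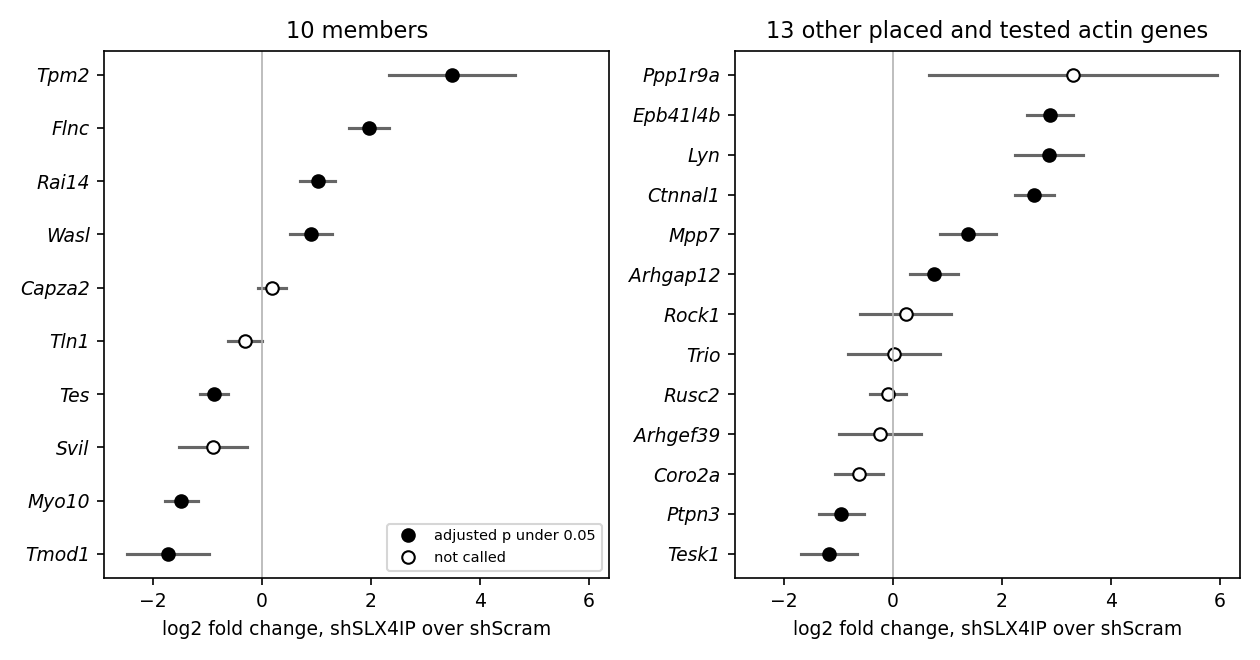
Log2 fold change of shSLX4IP over shScram with its 95% interval from the limma fit, for the 10 members (left) and the 13 other placed and tested actin genes (right). Filled points have an adjusted p under 0.05: 4 members and 5 other genes are above 0, and 3 members and 2 other genes are below it. Of placed nuclear features, 18.3% were called higher and 22.7% lower, and of all features 11.7% and 11.3%.

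Across 17 other settings, Tpm2, Flnc, Rai14 and Myo10 kept their direction and their call in each one. How many of all features did so was not counted. Among the other actin genes called, Lyn, Epb41l4b, Ctnnal1 and Mpp7 did so too, while Ptpn3, Arhgap12 and Tesk1 did not. Wasl, Tes and Tmod1 kept their direction in each and lost the call in 3, 1 and 3 settings. Tln1 was the one member that changed direction, in 1 setting.

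**Figure D5:**
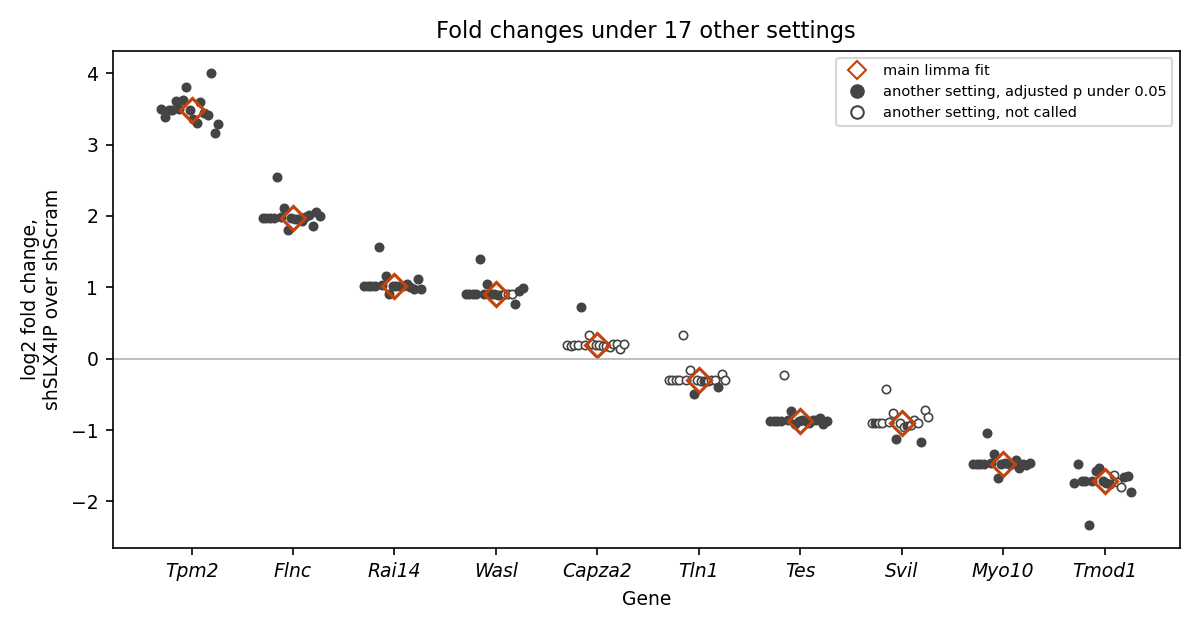
Log2 fold change of shSLX4IP over shScram for each member in the limma fit (diamond) and under 17 other settings (circles, filled where the adjusted p is under 0.05). Tpm2 stays between 3.17 and 4.0 and Myo10 between -1.68 and -1.04, while Tln1 crosses 0 in 1 setting.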

How the data were processed

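Per the labels, cells were plated on a cushion of Cultrex, a basement membrane extract, at 31500 per cm2, with 10% serum and 5% Cultrex in the medium, and libraries came from a stranded mRNA kit. Tools named in the submitters' processing notes are STAR 2.7.7, fastp 0.19.5, StringTie 2.1.7 and DESeq2 1.22.1, with the build GRCm38 and without roles. The sources used here name neither the annotation release nor the strand setting of the counting. The deposited signal is a read count per gene divided by the authors' size factor, 1 column per library. Column letters are not tied to the labels' replicate numbers. Each column is a multiple of 1 step, and 99.98% to 100% of values above 0 lay within 0.1 of a whole number of reads.

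Identifiers were matched to GENCODE M21 by their stable part, leaving out the version. The table's version was higher than that of M21 for 52056 of 52093 matched features, all 10 members among them. Coordinates, exonic lengths and exon overlaps are those of M21 and may differ from the annotation used in counting. Along each chromosome a protein-coding gene scored 3 if its mean was 1000 or more and -1 if not, and segments scoring at least 30 were kept: chromosome 4, 3574875 to 59904737, chromosome 6, 3372257 to 30509783, chromosome 15, 9071260 to 38692446, and chromosome 18, 4375592 to 10818704. Features with a mean of at least 10, 8127 in all, were fitted with limma 3.58.1 (R 4.3.3) on log2(value + 1). The fit used limma's trend, and its 2-sided p-values were adjusted by Benjamini-Hochberg over all 8127, with a threshold of 0.05. Count tests ran on the recovered reads with edgeR 4.0.16 and DESeq2 1.42.0. On simulated data the fits returned the fold changes put in, limma and edgeR called few of the changed genes, and DESeq2 also called unchanged ones. Genes named are the members, the placed genes of the actin lists, cell type markers and genes with overlapping exons. Members and lists were chosen with earlier results of these data known. The counts for 1 of the actin lists are not reported here.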

Additional observations from a re-analysis of the deposited data

How the results depend on the processing

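Pseudocounts of 0.5 and 10, no filter, a mean of at least 50, quantile normalization, TMM factors, scaling to the median of placed nuclear genes, removal of the exonic length trend, limma without the trend, edgeR, DESeq2 and leaving out each library were tried, and for placed counts also segments scored at a mean of at least 300, which left both counts within 1.5 times. Members called lower, 3 in the limma fit, were 5 with the length trend removed and 5 with DESeq2, and 2 to 5 when 1 library was left out, with 5 without shScram A. Members called higher were 4, 5 after quantile normalization and 3 to 4 with 1 library left out. Quantile normalization called 2 members lower. The limma fit called 952 features higher and 920 lower, and of placed features 80 and 106. After quantile normalization these were 1033 and 1269, and of placed features 104 and 107. With the length trend removed they were 1116 and 759, and of placed features 116 and 88. DESeq2 called 1602 features higher and 1624 lower, against 952 and 920, and 165 placed features lower, against 106. With 1 library left out, 433 to 1895 features were higher and 410 to 1573 lower, and of placed features 40 to 134 and 58 to 167, with the largest counts without shScram A and the smallest without a shSLX4IP library. Without shScram C, 489 features and 69 placed features were lower. The cause was not tested. Quantile normalization put the median log2 fold change of all features at -0.0028, where it was 0.25, and that of placed nuclear features at 0.10, where it was -0.15. Scaling to placed nuclear genes gave 0.39 for all features, and removal of the length trend 0.51. Values that changed sign, none of them called, were Tln1 at 0.33 (quantile), Rusc2 at 0.20 (quantile) and 0.052 (placed scaling), Rock1 at -0.21 (length), Trio at -0.53 (length), -0.085 (edgeR) and -0.072 (DESeq2), and Arhgef39 at 0.13 (length). With 1 library left out, Rock1 ran from -0.14 to 0.47, Trio from -0.34 to 0.31 and Arhgef39 from -0.46 to 0.038, each with the changed sign without shScram A. No paired analysis was possible because the columns carry letters that the labels do not tie to replicate numbers. Depth limits Tmod1 and Ppp1r9a.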
